A study of Mus musculus with 24 samples.

Results

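ATF4 stress response genes are described here across 4 treatments of ID8 cells, a mouse ovarian cancer line derived from the ovarian surface epithelium of C57BL/6 mice. The 10 genes were chosen by name (Atf4, Atf5, Ddit3, Trib3, Chac1, Asns, Sesn2, Nupr1, Ppp1r15a and Ddit4) and all 10 were found among the 25229 gene symbols of the count table. The libraries in all 4 groups came from cells lacking p53 (labelled P53 KO, here Trp53-/-), so a response through p53 was missing in the controls too. The groups were vehicle (DMSO), 2.5 μM AU15330 (AU-15330 below), 750 nM cisplatin, and cisplatin 750 nM with AU15330 2.5 μM (the combination below), each after 6 days and each with 6 libraries labelled replicate 1 to 6. AU-15330 is a PROTAC, a molecule that brings a ubiquitin ligase to the chromatin remodelling ATPases SMARCA4 and SMARCA2 so that they are degraded, and cisplatin is a DNA crosslinking drug used in the study to make these cells senescent. The study's methods give another cisplatin concentration for this line than the labels do, and the dose here is that of the labels.

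The integrated stress response is a pathway by which cells slow protein synthesis and change gene expression under stress. The kinases HRI, PKR, PERK and GCN2 sense haem loss or mitochondrial stress, double-stranded RNA, unfolded protein in the endoplasmic reticulum and uncharged tRNA, and each phosphorylates the translation factor eIF2 on its alpha subunit. General translation then falls while the mRNA of ATF4 is translated more, so ATF4 protein is set in large part by translation and cannot be read from its mRNA. ATF4 pairs with C/EBP factors on composite sites and raises genes for amino acid uptake and synthesis, tRNA charging, redox balance and, when stress lasts, cell death. As these were bulk libraries, fewer cells with a transcript and less of it per cell cannot be told apart.

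The genes lie as follows in GENCODE M21 (GRCm38, the assembly also called mm10). Atf4 lies on chromosome 15 from 80255184 to 80257541, Ddit3 on chromosome 10 from 127290774 to 127296288 and Chac1 on chromosome 2 from 119351229 to 119354381, all on the plus strand. On the minus strand are Atf5 (chromosome 7, 44812256 to 44816658), Trib3 (chromosome 2, 152337422 to 152344032), Asns (chromosome 6, 7675169 to 7693254), Sesn2 (chromosome 4, 132492032 to 132510501), Nupr1 (chromosome 7, 126623249 to 126630861), Ppp1r15a (chromosome 7, 45522916 to 45526268) and Ddit4 (chromosome 10, 59949669 to 59951834). Exons of Atf5 overlap those of Il4i1 and Nup62 on the other strand, exons of Ddit3 overlap Mars and Gm4189 on the other strand and a shorter second Ddit3 record on its own, and exons of Ppp1r15a overlap Tulp2. The libraries were stranded, but whether the counting used strand is not given in the sources used here, so the counts of these 3 genes could hold reads of their neighbours.

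RefSeq promoter windows (250 bases before to 50 after a transcript start, GRCm38.p6) were available for all 10 genes and were searched on both strands for the core of the C/EBP-ATF composite element, TGATGNAA. The core was in the windows of 4 of the 10 genes, Trib3, Chac1, Asns and Nupr1, and in those of 4.51% of all 27025 genes (3.97% of all 32851 windows). The form TTGCATCA is TGATGCAA read on the other strand and so counts among these matches. It was in 2 of the 10 genes (Chac1 and Nupr1) and in 1.03% of all genes (0.895% of all windows). The cAMP response element TGACGTCA was in 1 of the 10 (Ppp1r15a) and in 2.03% of all genes (1.79% of all windows). Stretches of 30 bases around the matches in the 5 genes, and 99 bases for Slc7a11, are shown because the first 4 carry the same core and are described one by one below. They are printed 5′ to 3′ on the strand of the gene, with the match in capitals.
Trib3, chr2:152344028-152344057, minus strand: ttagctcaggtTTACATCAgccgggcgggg
Chac1, chr2:119351038-119351067, plus strand: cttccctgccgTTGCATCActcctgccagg
Asns, chr6:7693214-7693243, minus strand: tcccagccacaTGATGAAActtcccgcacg
Nupr1, chr7:126625562-126625591, minus strand: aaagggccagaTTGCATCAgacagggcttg
Ppp1r15a, chr7:45526262-45526291, minus strand: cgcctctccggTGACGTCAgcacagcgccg
Slc7a11, chr3:50443615-50443713, minus strand: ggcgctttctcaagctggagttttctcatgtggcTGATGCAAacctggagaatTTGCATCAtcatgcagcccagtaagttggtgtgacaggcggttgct
Slc7a11, the cystine transporter gene described with the amino acid genes below, is shown because its window held 2 matches, one on each strand. A match describes letters in the window and is not a measured binding site. The stretch of Asns lies in an Asns exon of the annotation and that of Nupr1 in an exon of a longer Nupr1 transcript.

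The depth was 17592588 to 25260009 counts per library after the 2 sequencing lanes of each library were summed. Nothing in the labels says that the replicates were separate cultures, so p-values measure the spread between these libraries, which may be partly technical. Over all 12941 genes tested, libraries of one treatment differed less when their replicate numbers came from the same one of 3 sets (replicate 1, replicates 2 and 3, replicates 4 to 6). In DMSO-treated cells the root mean square log2 difference between libraries was 0.324 to 0.481 within the sets and 0.526 to 0.649 between them. In the other treatments it had medians of 0.301 (AU-15330), 0.272 (cisplatin) and 0.306 (combination) within the sets and of 0.393, 0.397 and 0.349 between them, and the ranges of the 2 kinds of pair overlapped with cisplatin only. The labels name no batch, and the origin of the sets was not tested. The sets were drawn after seeing these data, so smaller differences within them follow in part from that choice. Values within the sets are therefore given for the 10 genes. Where replicate 1 went the other way, they are given for some of the named list genes. The counts of the 10 genes and of the lists are also given with the libraries summed within the sets, which leaves 3 sums per treatment. Markers of the labelled cell type moved with the treatments. Of 13 ovarian surface, epithelial and mesothelial markers 11 were tested, of which 8 were higher and 0 lower with cisplatin (median log2 fold change 0.70), 1 higher and 9 lower with AU-15330 (-2.29) and 2 higher and 8 lower with the combination (-1.51). Krt19, a keratin, had means of 1783, 7.005, 1403 and 15.1 CPM (counts scaled to library size by the trimmed mean of M values, TMM) with DMSO, AU-15330, cisplatin and the combination. Pax8 and Epcam were under 1 CPM in every library. The summed level of the 13 was 5503 to 8573, 3839 to 4453, 6368 to 7559 and 5070 to 6036 CPM in that order, of which Vim, also a mesenchymal gene, had means of 2635, 2791, 2121 and 4052. Of the markers of other cells, 12 of 13 leukocyte genes, 4 of 5 endothelial genes and 3 of 7 fibroblast genes were under 1 CPM in every library. The remaining leukocyte gene, Cd68, had means of 11.8, 34.8, 9.25 and 33.7 CPM, and the remaining endothelial gene, Pecam1, 3.603, 0.46, 10.2 and 0.75. Of the 4 fibroblast genes tested, 3 were higher and 1 lower with each of the 3 treatments against DMSO. The summed level of the 7 was 227.3 to 641.4, 111.2 to 173.9, 364.7 to 449.4 and 194.3 to 294.2 CPM, carried by Col1a1 (means of 367.8, 70.5, 223.9 and 166.4) and Dcn (31.5, 58.9, 168.2 and 60.4), while Lum was at 0 in every DMSO library. The part of these markers in the results was not tested.

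Of the 10 genes, 9 varied most between the DMSO libraries, the exception being Ddit4. With DMSO, the ratio of the highest to the lowest library had a median of 3.71 over the 10 genes, from 1.34 for Ddit4 to 5.28 for Trib3, while its median over 10303 genes with a mean log2 CPM of at least 2 was 1.491. With AU-15330, cisplatin and the combination the median ratio over the 10 genes was 1.345, 1.511 and 1.295, against 1.239, 1.34 and 1.259 over the 10303 genes. Replicate 1 was the lowest DMSO library for 9 of the 10 genes (24.9% of those 10303 genes) and replicate 5 the highest for 9 of the 10 (14.2%). The DMSO replicates 4 to 6 were all above replicates 1 to 3 for 8 of the 10 genes, against 9.84% of the 10303 genes. Each comparison with DMSO below rests on these libraries.

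**Figure D1:**
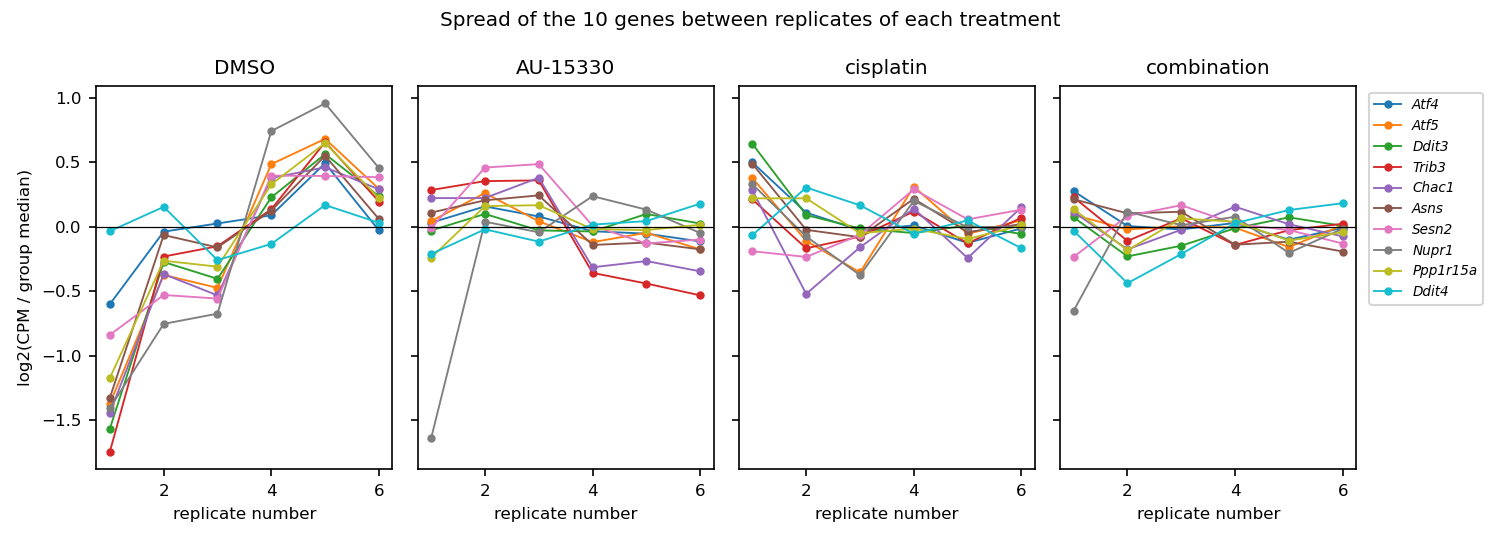
Log2 ratio of the CPM in each library to the median of its treatment (y) against the replicate number (x) for the 10 genes, 1 panel per treatment, with points joined by lines for each gene. With DMSO, replicate 1 lies below the median for all 10 genes and replicate 5 above it for all 10, and with AU-15330 the widest departure is that of Nupr1 in replicate 1.

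The transcription factors were measured first. Atf4 itself was at 381.8 to 814.3 CPM with DMSO (median 578.2), 318.5 to 384.5 with AU-15330 (median 344.3), 281.4 to 433.6 with cisplatin (median 306.6) and 349.7 to 453.9 with the combination (median 374.6). The 3 treated groups thus lay below the DMSO median throughout and overlapped each other, and only the lowest DMSO library (replicate 1) reached into their range. Atf5, a relative of ATF4 translated in a like way, had medians of 94.1, 74.8, 65.2 and 90.3 CPM in the same order, and its DMSO libraries ran from 36.4 to 151.1 CPM, which covers every treated library. Ddit3 encodes CHOP, a C/EBP factor that promotes death under lasting stress. It was at 37.98 to 166.1 CPM with DMSO (median 112.3), 86.7 to 95.3 with AU-15330 (median 88.9), 36.2 to 58.7 with cisplatin (median 37.5) and 87.4 to 107.8 with the combination (median 102.4). The cisplatin libraries lay below every library that had received AU-15330, and among the DMSO libraries only replicate 1 was as low.

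Among the targets that act on signalling, Trib3 encodes a pseudokinase that holds back ATF4 and CHOP in a feedback loop. Its level was 39.0 to 206.0 CPM with DMSO (median 130.6), 18 to 33.4 with AU-15330 (median 26.0), 29.1 to 37.8 with cisplatin (median 32.6) and 38.6 to 49.9 with the combination (median 42.6). The lowest DMSO library stood just above all AU-15330 and cisplatin libraries, and the combination libraries lay above all libraries of either agent alone. Ppp1r15a encodes GADD34, which brings a phosphatase to eIF2 and so restores translation. It was at 69.3 to 244.8 CPM with DMSO (median 156.0), 79.2 to 105.1 with AU-15330 (median 93.5), 67.7 to 84.3 with cisplatin (median 72.3) and 78.6 to 98.0 with the combination (median 89.1), and apart from DMSO replicate 1 the DMSO libraries lay above all treated ones. Sesn2 and Ddit4 encode inhibitors of the growth kinase complex mTORC1. Sesn2 had DMSO libraries of 27.4, 34.0, 33.3, 64.5, 64.4 and 63.9 CPM in replicates 1 to 6, and medians of 25.5, 32.9 and 42.9 CPM with AU-15330, cisplatin and the combination. Its DMSO libraries thus fell into a low and a high triplet, and the treated libraries (23.4 to 48.2 CPM) lay below the high one. Ddit4 was the steadiest gene of the 10 with DMSO, at 125.5 to 168.7 CPM (median 150). It was at 72.2 to 94.6 CPM with AU-15330 (median 83.5), 74.5 to 103.3 with cisplatin (median 83.6) and 41.9 to 64.5 with the combination (median 56.8), so that the DMSO libraries lay above all others and the combination libraries below all others.

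Of the metabolic and stress effectors, Asns (asparagine synthetase) was at 70.2 to 257.8 CPM with DMSO (median 175.9), 143.0 to 191.1 with AU-15330 (median 161.3), 73.7 to 109.2 with cisplatin (median 77.8) and 170.0 to 225.1 with the combination (median 194.0). Chac1, whose enzyme breaks down glutathione, was at 16.95 to 63.4 CPM with DMSO (median 46.0), 36.5 to 60.3 with AU-15330 (median 46.3), 13.6 to 23.8 with cisplatin (median 19.6) and 47.2 to 59.3 with the combination (median 53.2). For both genes the cisplatin libraries lay below all libraries with AU-15330, alone or combined, and DMSO replicate 1 was the only DMSO library as low as the cisplatin ones. Nupr1 encodes a small nuclear protein induced by many stresses. It was at 128.2 to 659.0 CPM with DMSO (median 339.3), 33.95 to 124.7 with AU-15330 (median 105.7), 278.8 to 454.2 with cisplatin (median 361.2) and 60.5 to 103.0 with the combination (median 94.9). It was therefore low wherever AU-15330 was present and its cisplatin libraries lay within the range of the DMSO libraries. Divided by exon length, Atf4 had the highest DMSO level of the 10 at 249.6 ± 58.6 CPM per kilobase (SD, n = 6), followed by Nupr1 at 148.2 ± 87.8 and Ddit4 at 85.3 ± 9.67, and Sesn2 the lowest at 13.8 ± 5.197. Neighbours in that order, at its ends too, did not all differ beyond their spread. Those that did not include Nupr1 and Ddit4, Chac1 (26.9 ± 11.4) and Sesn2, and Ddit3 (62.9 ± 26.4), Asns (62.7 ± 22.2) and Trib3 (60.2 ± 25.9).

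**Figure D2:**
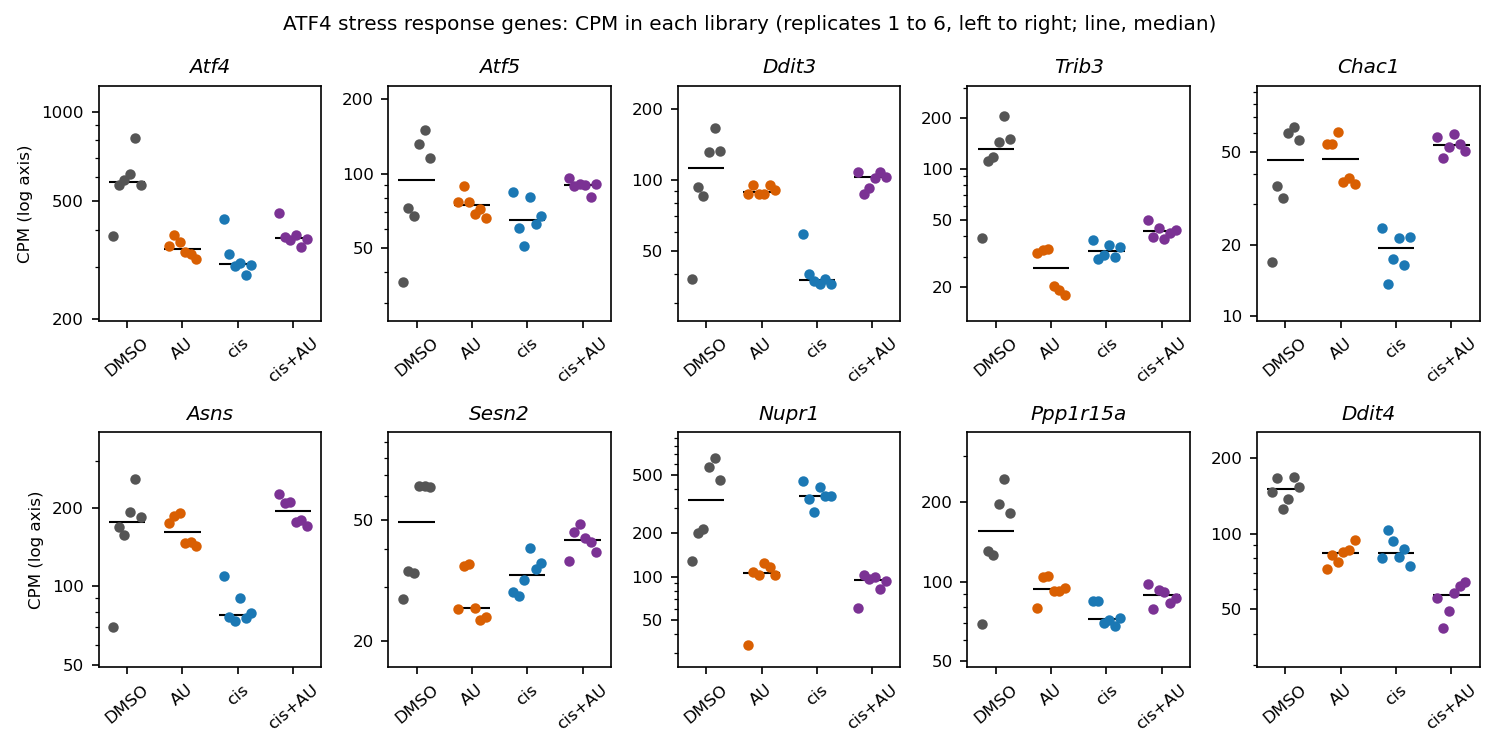
CPM (y, log axis) of each of the 10 genes in every library, with DMSO, AU-15330 (AU), cisplatin (cis) and the combination (cis+AU) on the x axis, 6 points per treatment in the order of replicate 1 to 6 and a line at the median. Chac1, Asns and Ddit3 are low with cisplatin and not with AU-15330, Nupr1 is low with AU-15330 and not with cisplatin, and Ddit4 is lowest with the combination.

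Cisplatin was compared with DMSO to see how the pathway stood in the cisplatin-treated cells. Of the 10 genes, 9 were lower with cisplatin and 0 higher at an adjusted p under 0.05 (edgeR quasi-likelihood test, Benjamini-Hochberg adjustment over 12941 genes), where 51.7% of all tested genes were called (25.7% lower and 26% higher). Of the calls over all genes 50.2% were higher, and 61.1% when libraries were scaled by total counts, where 8 of the 10 genes (19.5% of all genes) were lower and 0 higher. The median log2 fold change of the 10 was -0.94, against 0.00 over all tested genes. Trib3 fell most, by 1.96 on the log2 scale (SE 0.23, adjusted p = 1.24e-07), followed by Ddit3 at -1.39 ± 0.20 (SE), Chac1 at -1.20 ± 0.22, Ppp1r15a at -1.07 ± 0.17 and Asns at -1.03 ± 0.18, with adjusted p from 2.68e-06 to 5.12e-05. Atf4 (-0.85 ± 0.12), Ddit4 (-0.79 ± 0.10), Sesn2 (-0.53 ± 0.18) and Atf5 (-0.50 ± 0.21) fell less, and Nupr1 had a log2 fold change of -0.01 ± 0.30 that did not pass. Trib3 and Ddit4 were the 2 genes whose ranges did not overlap between the groups (24% of all tested genes). The direction depended on the replicate set. In replicate 1, 8 of the 10 genes had a higher level with cisplatin (median log2 difference 0.38), whereas 9 of 10 were lower in replicates 2 and 3 (median -0.80) and 10 of 10 in replicates 4 to 6 (median -1.25). Without DMSO replicate 1 the count stayed at 9. Fits that left out this library or a replicate called 5824 to 6826 genes, against 6689 (51.7%) with all libraries. With libraries summed within the sets the count was 6 (14.1% of all genes lower there), with Atf5 (adjusted p = 0.675), Sesn2 (0.245) and Asns (0.0658) no longer passing. Atf5 also missed the threshold with the replicate number as a block (adjusted p = 0.0708) and when any one of replicates 2 to 6 was left out (adjusted p from 0.0639 to 0.269). In edgeR it missed as well with DESeq2 size factors (adjusted p = 0.0503), total counts (0.0935) and a fit of the 2 groups alone (0.142). Sesn2 missed the threshold without replicate 5 (0.0748) or replicate 6 (0.0611).

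AU-15330 alone was compared with DMSO to see how these genes stood with the degrader alone. Of the 10 genes, 6 were lower and 0 higher, where 73.4% of all tested genes were called (37.2% lower and 36.2% higher), and the median log2 fold change of the 10 was -0.75 (all genes 0.00). Scaling by total counts moved the all-gene median by 0.13 in this comparison and by 0.14 in that of the combination with DMSO, and the counts of the 10 genes called lower were 6 and 5 under it, as with TMM, where 30.7% and 29.9% of all genes were lower. Trib3 fell by 2.30 (SE 0.24, adjusted p = 2.71e-09) and Nupr1 changed by -1.93 (SE 0.31, adjusted p = 4.59e-06), the latter to a mean of 98.05 CPM from 372.5. Ddit4 (-0.85 ± 0.10), Sesn2 (-0.77 ± 0.18), Atf4 (-0.76 ± 0.12) and Ppp1r15a (-0.74 ± 0.17) fell by less, with adjusted p of at most 0.000479. The other 4 did not pass, Atf5 at -0.35 ± 0.21, Ddit3 at -0.25 ± 0.20, Asns at -0.06 ± 0.18 and Chac1 at 0.09 ± 0.21. Ranges did not overlap for Trib3, Nupr1 and Ddit4, 3 of the 10 genes, as for 49.9% of all tested genes. Within replicate 1 the genes split evenly (5 higher and 5 lower), as in replicates 2 and 3, and in replicates 4 to 6 all 10 were lower (median -0.97). Atf4, Trib3, Nupr1 and Ddit4 were lower in each of the 3 sets. Summed within the sets, 4 genes were called lower (Atf4, Ddit4, Nupr1 and Trib3), where 29.7% of all genes were, and Ppp1r15a (adjusted p = 0.102) and Sesn2 (0.0759) did not pass. Without DMSO replicate 1, Atf5 and Ddit3 also passed and the count was 8. Fits that left out this library or a replicate called 8983 to 9685 genes, against 9497 (73.4%) with all libraries. Replicates 1 to 3 alone gave 4 lower and 1 higher, Chac1 at 0.99 (adjusted p = 0.00282), where 30.6% and 29% of all genes were, and replicates 4 to 6 alone 10 lower (37.4% of all genes).

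The combination was compared with each agent alone. Adding AU-15330 to cisplatin changed 5 of the 10 genes, 3 higher and 2 lower, where 68.1% of all tested genes were called (35.4% higher and 32.7% lower). Chac1 rose by 1.48 on the log2 scale (SE 0.22, adjusted p = 1.33e-06), Ddit3 by 1.29 (SE 0.20, adjusted p = 3.52e-06) and Asns by 1.21 (SE 0.18, adjusted p = 1.35e-06). Each of the 3 was higher in the combination without overlap of the groups. Nupr1 fell by 2.05 (SE 0.31, adjusted p = 2.37e-06) and Ddit4 changed by -0.65 (SE 0.10, adjusted p = 2.43e-06), both without overlap. All 5 kept these directions within each of the 3 replicate sets. Atf4 (0.23 ± 0.12), Atf5 (0.40 ± 0.21), Sesn2 (0.36 ± 0.18), Trib3 (0.39 ± 0.23) and Ppp1r15a (0.24 ± 0.17) did not pass, with adjusted p from 0.0779 to 0.233. Ranges did not overlap for 6 of the 10 genes (50.2% of all tested genes). The same 5 genes were called with libraries summed within the sets (adjusted p from 0.000476 to 0.0111), a share near the 50.9% of all genes called there. With the set as a block in a fit of all libraries, 4 of the 10 genes were higher and 2 lower. Scaled by total counts, Atf4 (adjusted p = 0.0446) and Sesn2 (0.0444) also passed, and without replicate 1 Atf4 (0.0224) and Atf5 (0.0319) did. The DMSO libraries are not part of this comparison, although the fit shares their spread. When only these 2 groups were fitted, 9 of the 10 genes passed, 7 higher and 2 lower, where 70.4% of all genes did (35.3% higher and 35.1% lower).

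Set against AU-15330 alone, the combination had 3 of 10 genes changed, 2 higher and 1 lower, where 41.7% of all tested genes were called (22.2% higher and 19.5% lower). Trib3 rose by 0.72 (SE 0.23, adjusted p = 0.014) and Sesn2 by 0.59 (SE 0.18, adjusted p = 0.00979), and Ddit4 fell by 0.59 (SE 0.10, adjusted p = 3.61e-05), each in 6 of 6 replicate numbers and without overlap (29.6% of all tested genes). The same 3 genes passed with the replicate number as a block. Trib3 did not pass without replicate 4 (adjusted p = 0.0538) or replicate 6 (0.0691). Summed within the sets, Ddit4 alone passed (adjusted p = 0.00622, with 18.8% of all genes called), with Sesn2 at an adjusted p of 0.181 and Trib3 at 0.255. In a fit of these 2 groups alone 6 genes passed, with 54.5% of all genes called, and Atf5 (0.26, adjusted p = 0.00487), Ddit3 (0.15, adjusted p = 0.0379) and Asns (0.25, adjusted p = 0.0302) were the ones added. Set against DMSO, the combination had 5 of the 10 genes lower and 0 higher, where 73.3% of all tested genes were called (36.5% lower and 36.8% higher). These were Nupr1 (-2.06 ± 0.31), Trib3 (-1.57 ± 0.23), Ddit4 (-1.44 ± 0.10), Ppp1r15a (-0.84 ± 0.17) and Atf4 (-0.62 ± 0.12), and the ranges of Nupr1 and Ddit4 did not overlap (49.5% of all tested genes). Summed within the sets, Ppp1r15a no longer passed (adjusted p = 0.0644) and 4 genes were called lower (30.7% of all genes), while Ddit3 passed as lower without replicate 1 (-0.36, adjusted p = 0.0116). Ddit3, Asns and Chac1, which were low with cisplatin alone, had log2 fold changes of -0.11 ± 0.20, 0.18 ± 0.18 and 0.28 ± 0.21 against DMSO and did not pass. Within the sets, 8 of the 10 genes were higher than with DMSO in replicate 1 (median log2 difference 0.46), 5 in replicates 2 and 3 (median -0.28) and 0 in replicates 4 to 6 (median -0.73). A fit of replicates 1 to 3 alone called 4 of the 10 higher (Atf5, Chac1, Asns and Sesn2) and 3 lower (28.8% and 31.8% of all genes tested there), and one of replicates 4 to 6 called 0 higher and 9 lower (33.5% and 37.8%). The 3 comparisons with DMSO share its libraries.

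**Figure D3:**
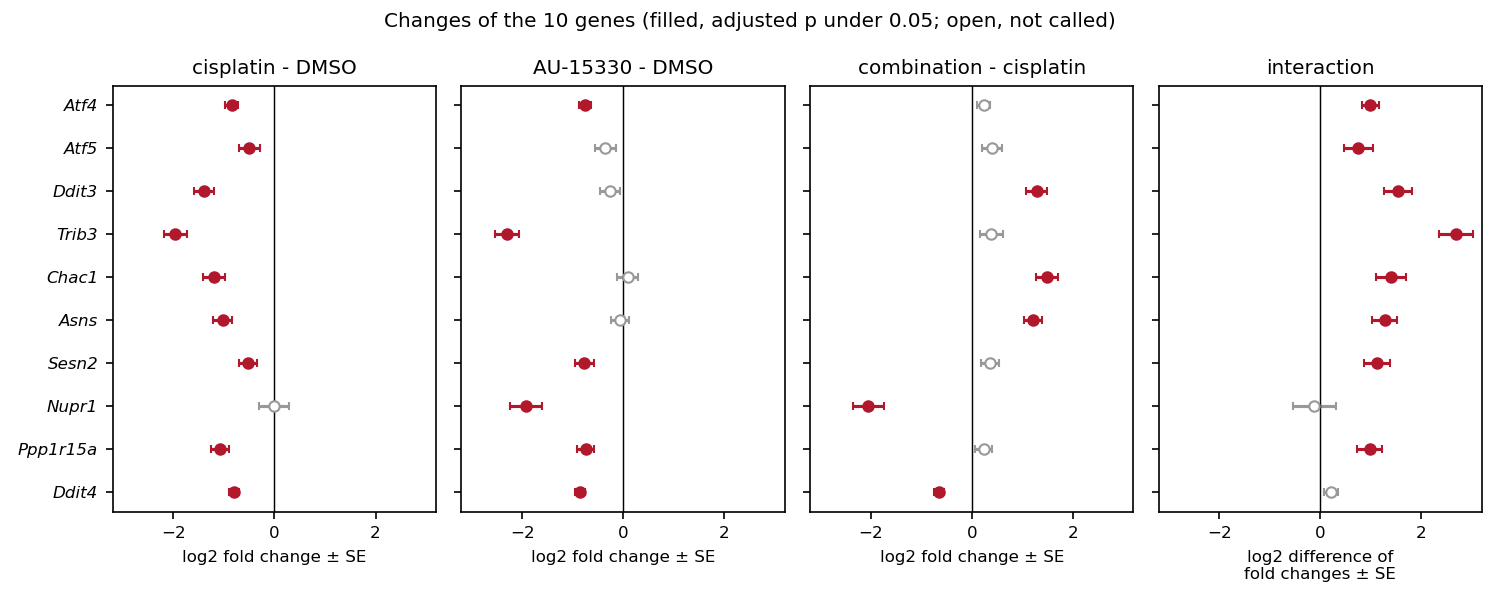
Log2 fold change (x, ± SE) of the 10 genes (y) for cisplatin against DMSO, AU-15330 against DMSO and the combination against cisplatin, and, at the right, the interaction of the 2 agents as a difference of log2 fold changes. Filled points passed an adjusted p under 0.05. Of the 10 genes, 9 are filled and to the left of 0 with cisplatin, and 8 are filled and to the right of 0 for the interaction.

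The interaction asks whether AU-15330 acted differently in the presence of cisplatin. It is the log2 change from AU-15330 in cisplatin-treated cells minus its log2 change in DMSO-treated cells. At an adjusted p under 0.05 it was called positive for 8 of the 10 genes and negative for 0, where 33.7% of all tested genes were called (17.9% positive and 15.8% negative). Of the calls over all genes 53% were positive, and 41.7% with total-count scaling, where 7 of the 10 genes passed, all positive (13.8% of all genes positive there). Its median over the 10 was 1.06 (0.01 over all genes). Trib3 had the highest value, 2.68 ± 0.33 (SE, adjusted p = 7.37e-07), as it fell by 2.30 with AU-15330 alone and had a log2 fold change of 0.39 on top of cisplatin. Ddit3 (1.54 ± 0.28), Chac1 (1.40 ± 0.30), Asns (1.27 ± 0.25), Sesn2 (1.12 ± 0.25), Atf4 (0.99 ± 0.17), Ppp1r15a (0.98 ± 0.24) and Atf5 (0.75 ± 0.29) followed, with adjusted p from 7.85e-05 for Atf4 to 0.0479 for Atf5. Atf5 did not pass when any one of replicates 2 to 6 was left out (adjusted p from 0.0568 to 0.193). In edgeR it also missed with DESeq2 size factors (adjusted p = 0.0556), total counts (0.0778) and no filter (0.0556). Ddit4 (0.21 ± 0.14) and Nupr1 (-0.12 ± 0.43) did not pass. The value contains the DMSO libraries and moved with the replicate sets. Its median was -0.12 in replicate 1 (5 of 10 genes positive), 0.72 in replicates 2 and 3 (8 of 10) and 1.51 in replicates 4 to 6 (10 of 10). Summed within the sets, 1 of the 10 genes passed (10.1% of all genes tested there), Trib3 at 2.30 (adjusted p = 0.0153), and the other 7 had adjusted p from 0.0894 to 0.609. These sums were fitted without a term for the set. With the set as a block in a fit of all libraries, 8 of the 10 genes were called, all positive. The share of all genes called with that block is not given here.

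The wider pathway was read from lists of genes. Their counts are set against the share of all tested genes called, which was 51.7% with cisplatin (25.7% lower), 73.4% with AU-15330 (37.2% lower) and 68.1% when AU-15330 was added to cisplatin (35.4% higher). In the sums within sets these shares were 31.4% (14.1% lower), 58.4% (29.7% lower) and 50.9% (23.2% higher). Of 17 genes for the eIF2 kinases and eIF2 machinery, 2 were higher and 7 lower with cisplatin, 6 higher and 8 lower with AU-15330, and 11 higher and 3 lower when AU-15330 was added to cisplatin. The shares called were thus 52.9%, 82.4% and 82.4%, the first near that of all genes. In the sums within sets, 2 were higher and 3 lower with cisplatin, 4 higher and 4 lower with AU-15330, and 6 higher and 0 lower with the addition. Of the 4 kinases, Eif2ak2 (PKR, the sensor of double-stranded RNA, also an interferon-induced gene) rose with every treatment. It was at 45.4 to 67.6 CPM with DMSO, 154.2 to 213.9 with cisplatin, 278.2 to 320.1 with AU-15330 and 184.0 to 254.7 with the combination. Its log2 fold change was 1.75 ± 0.09 (adjusted p = 3.7e-14) with cisplatin and 2.43 ± 0.10 (adjusted p = 8.34e-18) with AU-15330. Eif2ak1 (HRI) fell slightly with cisplatin (-0.27 ± 0.05) and AU-15330 (-0.22 ± 0.05), the latter not with total-count scaling (-0.0932, adjusted p = 0.0833). Eif2ak3 (PERK) had medians of 62.8, 46.8, 49.95 and 36.7 CPM with DMSO, AU-15330, cisplatin and the combination and fell with AU-15330 (-0.33 ± 0.11) and with the combination, against DMSO (-0.68 ± 0.11) and against cisplatin (-0.44 ± 0.11). The fall of Eif2ak3 with AU-15330 did not pass with total-count scaling (-0.20, adjusted p = 0.0881) or in the sums (-0.27, adjusted p = 0.227), and its log2 difference in replicate 1 was 0.062. The fall against cisplatin did not pass in the sums either (-0.46, adjusted p = 0.0519). Eif2ak4 (GCN2) rose when AU-15330 was added to cisplatin (0.35 ± 0.09). Its lower level with cisplatin (-0.24 ± 0.09) was lost as a call with total-count scaling (-0.16, adjusted p = 0.106), in a fit of the 2 groups alone (adjusted p = 0.0505), in the sums (0.161) and without replicate 2, 3, 4 or 6 (adjusted p from 0.0571 to 0.11). Of 19 ATF4 partners and related factors, 5 were higher and 8 lower with cisplatin, 4 higher and 11 lower with AU-15330, and 6 higher and 10 lower when AU-15330 was added to cisplatin (median -0.18). The sums, in which 20 were tested, gave 3 and 6, 5 and 8, and 6 and 8. Atf3, a stress-induced factor, fell by 1.70 with cisplatin (SE 0.21), though not in replicate 1 (a log2 difference of 0.16), and rose by 1.20 when AU-15330 was added (SE 0.20). Cebpb and Cebpd, C/EBP factors that can pair with ATF4, fell with AU-15330 (-1.76 ± 0.12 and -2.84 ± 0.20), Cebpd from a median of 172.0 CPM to 21.8.

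Genes for amino acid supply were read next. With cisplatin, 16 of 20 cytosolic aminoacyl-tRNA synthetases were lower and 0 higher (median -0.43), 7 were lower and 3 higher with AU-15330 alone, and 15 of 20 were higher and 0 lower when AU-15330 was added to cisplatin (median 0.47). Eprs and Sars, which charge tRNA with glutamate and proline and with serine, fell with cisplatin (-0.81 ± 0.10 and -0.78 ± 0.10) and rose with the addition (0.66 ± 0.10 and 0.70 ± 0.10). Aars, for alanine, rose with AU-15330 alone too (0.78 ± 0.11), from a median of 450.3 CPM to 711.7. Wars, for tryptophan, fell with both agents (-0.77 ± 0.13 with cisplatin and -0.96 ± 0.13 with AU-15330), that with cisplatin not in replicates 1 to 3 alone (-0.35, adjusted p = 0.0879). In the sums, 9 of 20 were lower with cisplatin, 3 lower and 2 higher with AU-15330, and 12 of 20 higher with the addition, the others not passing. Promoter windows were available for 13 of the 20, of which 5 (Aars, Gars, Iars, Tars and Yars) held the core TGATGNAA, as did 4.51% of all genes. It was in 1 of 13 eIF2 genes, 2 of 16 partner factors, 3 of 13 transporters and 2 of 18 synthesis genes with a window. Of the lists described below, it was in 3 of 20 other ATF4 targets. It was in 0 of 17 IRE1 and ATF6 targets, 0 of 9 mitochondrial and 0 of 19 mTORC1 genes. Of 21 genes of amino acid and one-carbon synthesis, 15 were lower and 1 higher with cisplatin (median -0.60), 10 lower and 6 higher with AU-15330 (median -0.20), and 15 higher and 4 lower when AU-15330 was added to cisplatin. With libraries summed within the sets these counts were 10 lower and 1 higher, 8 lower and 5 higher, and 9 higher and 3 lower. Pycr1, of proline synthesis, was at 12.1 to 43.7 CPM with DMSO and 4.28 to 6.96 with cisplatin (-2.63 ± 0.21), and at 16.9 to 22.6 with the combination (1.94 ± 0.20 against cisplatin). Psat1, of serine synthesis, was at 285.8 to 396.0 CPM with DMSO and 27.7 to 43.6 with AU-15330 (-3.37 ± 0.13), and its level was 180.1 to 259.0 CPM with cisplatin (-0.72 ± 0.12). Psat1 fell when AU-15330 was added to cisplatin (-1.12 ± 0.12). Aldh1l2, not followed in the alternatives, had the largest change of the list's called genes with a mean log2 CPM of at least 2. Its log2 fold change was -3.53 with cisplatin, -7.70 with AU-15330 and -2.47 with the addition. Shmt1, which makes glycine from serine in the cytosol, rose from 1.54 to 2.97 CPM with DMSO to 12.2 to 20.04 with cisplatin (3.00 ± 0.14) and 29.6 to 37.1 with AU-15330 (4.00 ± 0.14). Of 16 amino acid transporters, 9 were lower and 3 higher with cisplatin, 11 lower and 4 higher with AU-15330, and 4 lower and 7 higher when AU-15330 was added to cisplatin (5 and 1, 8 and 3, and 3 and 2, summed within the sets). Slc7a11 and Slc3a2 encode the 2 chains of the cystine and glutamate exchanger. Slc7a11, whose promoter stretch is printed above, was at 26.9 to 259.6 CPM with DMSO, 14.4 to 24.5 with cisplatin, 3.29 to 5.76 with AU-15330 and 11.2 to 26.1 with the combination, with DMSO replicate 1 the low library. It fell with cisplatin (-3.10 ± 0.33) and AU-15330 (-5.21 ± 0.37), as did Slc3a2 (-0.98 ± 0.15 and -1.02 ± 0.15). In replicate 1 the log2 differences were 0.25 and 0.059 for Slc3a2, and with cisplatin 0.26 for Wars, 0.001 for Eprs and 0.56 for Aars, which passed as lower with cisplatin over all libraries (-0.38) and not without replicate 3 (-0.28, adjusted p = 0.0695) or in the sums (-0.24, adjusted p = 0.372).

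Of 24 other genes known as ATF4 targets, 14 were lower and 2 higher with cisplatin, 15 lower and 7 higher with AU-15330, and 11 lower and 8 higher when AU-15330 was added to cisplatin (median -0.16). Summed within the sets the counts were 11 and 1, 13 and 4, and 8 and 5. Vegfa and Ndrg1 are also known as hypoxia genes. Vegfa, an angiogenic factor, had medians of 1069, 117.1, 276.4 and 104.3 CPM with DMSO, AU-15330, cisplatin and the combination, and Ndrg1 medians of 559.1, 7.40, 196.5 and 21.8 CPM. Herpud1, which helps to remove unfolded protein, fell with cisplatin (-1.45 ± 0.18) and AU-15330 (-1.01 ± 0.18), the latter not in replicates 1 to 3 alone (-0.32, adjusted p = 0.216) and with a log2 difference of 0.52 in replicate 1. Fgf21, a hormone gene named here after its values were seen, was at 7.86 to 122.7 CPM with DMSO and 1.73 to 3.67 with cisplatin, and had 1 to 8 counts per library with AU-15330. Of 19 targets of the sister branches of the unfolded protein response, IRE1 and ATF6, 16 were lower and 0 higher with cisplatin (median -0.65) and 12 lower and 1 higher with AU-15330 (median -0.42), and 1 was lower and 6 higher when AU-15330 was added to cisplatin. The counts from the sums were 10 and 0, 7 and 1, and 1 and 2. Hspa5, the chief chaperone of the endoplasmic reticulum, was at 814.2 to 3810 CPM with DMSO and at 645.8 to 864.0 in all treated libraries, again with DMSO replicate 1 the lowest of its group, so that cisplatin replicate 1 lay 0.086 above it on the log2 scale. Of 24 calls of the named list genes other than Aldh1l2 with each single agent, 17 had the same direction in all 3 replicate sets with cisplatin and 17 with AU-15330. The other 7 with each agent went the other way in replicate 1. Xbp1 fell with AU-15330 (-1.87 ± 0.08) and cisplatin (-0.61 ± 0.07). Of 12 mitochondrial stress proteins, 6 were lower and 0 higher with cisplatin, among them Lonp1, the matrix protease (-0.81 ± 0.10), 6 lower and 2 higher with AU-15330, and 2 lower and 6 higher with the addition. The sums gave 2 and 0, 3 and 2, and 1 and 3, and the shares called (50%, 66.7% and 66.7%) were near those of all genes. Of 22 mTORC1 signalling genes, 3 were higher and 6 lower with cisplatin, 11 higher and 6 lower with AU-15330, and 12 higher and 4 lower with the addition (3 and 3, 10 and 2, and 9 and 4 in the sums). The share called was 40.9% with cisplatin, below that of all genes, and 77.3% and 72.7% in the other comparisons, near it. Deptor, which encodes an mTOR inhibitor, fell with cisplatin (-1.39 ± 0.20) and AU-15330 (-3.42 ± 0.22).

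**Figure D4:**
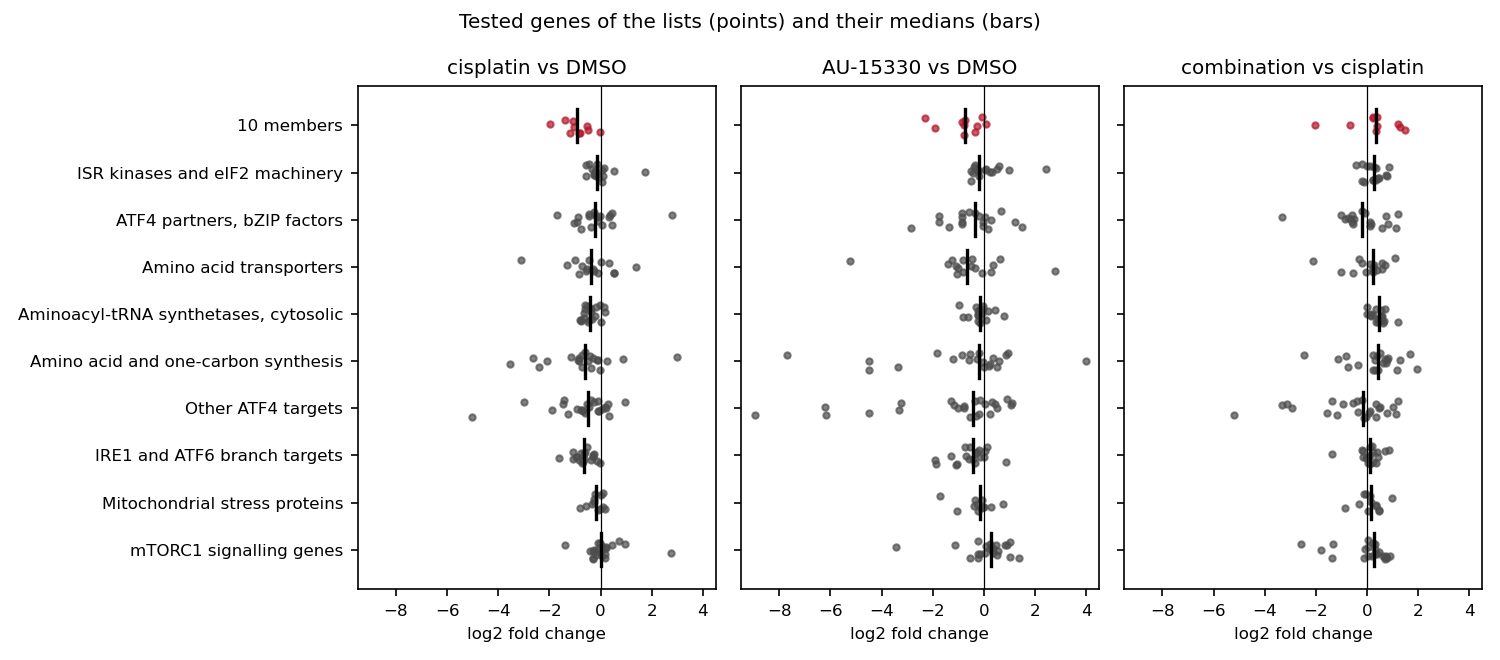
Log2 fold change (x) of every tested gene of each list (y, points scattered vertically for sight) in 3 comparisons, with a bar at the median of the list and the 10 ATF4 stress response genes in red. With cisplatin the bar of the 10 genes lies at -0.94 and those of the tRNA synthetases and of the IRE1 and ATF6 targets at -0.43 and -0.65, and for the combination against cisplatin those of the 10 genes and the tRNA synthetases lie at 0.37 and 0.47.

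Over the 24 libraries, the genes whose log2 CPM followed Atf4 most closely among 9566 genes searched were Manf (Pearson r = 0.96), Pdia6 (0.94), Serp1 (0.94), Selenos (0.93) and Gars (0.92). For Trib3 they were Manf (0.96), Gars (0.95), Hyou1 (0.95), Gnpnat1 (0.95) and Hspa5 (0.95). These are descriptions over libraries that share treatments and replicate sets. Manf, a secreted protein of the endoplasmic reticulum and the nearest to both, had medians of 181.6, 83.8, 95.7 and 102.2 CPM with DMSO, AU-15330, cisplatin and the combination.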

How the data were processed

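RNA-seq was made from 24 samples of ID8 Trp53-/- cells, 6 per treatment, as stranded poly(A)-selected single-end libraries. The authors deposited raw counts per gene symbol, with 1 column for each of 2 lanes per library. The submitters' processing notes name STAR 2.7.1a, mm10 and DESeq2 1.36.0. The counting tool, its strand setting and the annotation are not given in the sources used here. Lanes were summed (48 columns, 0 left unused, 17592588 to 25260009 counts per library). Chi-square per degree of freedom was 1.36 to 1.47 between lanes of a library, whereas pairs of replicates had a median of 25.9.

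Counts were scaled with TMM, filtered with filterByExpr (12941 of 25229 genes) and fitted with 1 mean per treatment over all 24 libraries (20 residual degrees of freedom) using the quasi-likelihood test of edgeR 4.0.16 in R 4.3.3. P-values were adjusted over all tested genes, with a threshold of 0.05. CPM were scaled by TMM, and log2 CPM used a prior count of 2. The script was tested on simulated data. Alternatives were DESeq2 size factors, total counts, DESeq2 1.42.0, no filter, the replicate number as a block, fits of 2 groups, a required fold of 1.5 and leaving out replicates. 4 more, on sets of replicate numbers, were chosen after seeing the data.

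Same-numbered libraries of different treatments deviated together only in part (mean r = 0.145, 23 of 36 pairs over 0.1, against a mean of -0.0269 for other numbers). Only between AU-15330 and the combination were all 6 pairs over 0.1, so the fit with the number as a block is given beside that comparison, whose printed values come from the fit without it.

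The 10 genes and the lists were chosen with earlier results of these data known. Named list genes were, for each list and comparison, among the 3 called genes with the largest log2 fold change and a mean log2 CPM of at least 2, plus the eIF2 kinases. Fgf21 was named outside this rule, after its values were seen, and not every gene the rule allows was named. Genes most like Atf4 and Trib3 were taken by Pearson r over all libraries.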

Additional observations from a re-analysis of the deposited data

Results flagged for a closer look

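In groups of 6 libraries, a highest or lowest library stood apart where its gap to the nearest other library, divided by the range of all 6, exceeded Dixon's critical value. Of 140 groups of the 35 followed genes, 17 had such a library, where chance gives about 1 in 20 (7 groups), and in all 17 it was replicate 1. Replicate 1 was high for Atf4 with cisplatin (gap share 0.673) and with the combination (0.683), Ddit3 with cisplatin (0.828), Atf3 with the combination (0.696), Cebpd with AU-15330 (0.749), Psat1 with AU-15330 (0.688), cisplatin (0.79) and the combination (0.645), Fgf21 with cisplatin (0.697) and Ndrg1 with AU-15330 (0.649). It was low for Nupr1 with AU-15330 (0.753), Eif2ak2 with the combination (0.634), Eif2ak3 with DMSO (0.847) and AU-15330 (0.639), Aars with DMSO (0.633), and Vegfa with AU-15330 (0.752) and the combination (0.638).

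For 31 of the 35 genes the effect of AU-15330 was not the same with cisplatin as without it by the interaction term (edgeR, adjusted p under 0.05). These genes were named in part for large changes, also in the interaction, so the count is a description of them. Over all tested genes 33.7% were called, and with libraries summed within the replicate sets 16 of the 31 still passed, 1 of them among the 10 ATF4 stress response genes, where 10.1% of all genes (1402) did. Among the ATF4 stress response genes the differences of log2 fold changes were 0.99 for Atf4, 0.75 for Atf5, 1.54 for Ddit3, 2.68 for Trib3, 1.40 for Chac1, 1.27 for Asns, 1.12 for Sesn2 and 0.98 for Ppp1r15a. Among the kinases and partner factors they were 0.22 for Eif2ak1, -2.12 for Eif2ak2, 2.06 for Atf3, 1.15 for Cebpb and 1.98 for Cebpd. For amino acid genes they were 5.18 for Slc7a11, 1.62 for Slc3a2, 0.88 for Eprs, 0.93 for Sars, 0.44 for Aars, 0.96 for Wars, 3.17 for Pycr1, 2.25 for Psat1 and -2.33 for Shmt1. For the remaining genes they were 6.05 for Fgf21 (a fitted value resting on 1 to 12 counts per library with AU-15330, alone or combined), 1.76 for Vegfa, 2.87 for Ndrg1, 0.95 for Herpud1, 1.89 for Hspa5, 1.21 for Manf, 0.50 for Xbp1, 0.82 for Deptor and 0.82 for Lonp1. Of these, the call of Eif2ak1 was lost with DESeq2 size factors (adjusted p = 0.0501), total counts (0.0914), no filter (0.0901) and without replicate 1 (0.124), replicate 3 (0.179), replicate 4 (0.0602) or DMSO replicate 1 (0.057). That of Aars was lost with total counts (adjusted p = 0.0754), no filter (0.0513) and when any one of replicates 2 to 6 was left out (edgeR, adjusted p from 0.085 to 0.145), and that of Deptor likewise when any one of these was left out (0.0532 to 0.0919). In replicate 1 alone the difference was -0.47 for Aars, -0.054 for Wars and -0.41 for Herpud1.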

How the results depend on the processing

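Of 990 log2 fold changes of the 10 genes under the alternatives, 856 kept their direction and side of the threshold, 55 fell short of it, 35 newly passed and 44 changed sign. A required fold of 1.5 cut the genes called to 1789 (cisplatin), 4657 (AU-15330), 4683 (combination against DMSO), 3803 (combination against cisplatin), 842 (combination against AU-15330) and 926 (interaction), and the members called to 3 for AU-15330, 3 for the combination against DMSO, 0 for the combination against AU-15330 and 5 for the interaction, since it asks for more. Fits of only the 2 groups compared called 9 members for the combination against cisplatin and 6 against AU-15330. Leaving out 1 replicate gave 7 to 9 members for cisplatin (5824 to 6826 genes), 6 to 8 for AU-15330 (8983 to 9685) and 5 to 6 for the combination against DMSO (8945 to 9643). It gave 5 to 7 against cisplatin (8213 to 8958 genes), 2 to 3 against AU-15330 (4501 to 5623) and 7 to 8 for the interaction (3265 to 4627). With all libraries 51.7%, 73.4%, 73.3%, 68.1%, 41.7% and 33.7% of the 12941 tested genes were called, in that order.

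4 alternatives on replicate sets were chosen after seeing the data. Replicates 1 to 3 alone gave 4361 genes and 3 members for cisplatin, 2817 and 1 for the combination against AU-15330 and 1701 and 1 for the interaction. Replicates 4 to 6 alone gave 10 members for AU-15330 (72.8% of all genes called there), 9 for the combination against DMSO (71.3%), 8 against cisplatin (68.9%) and 6 against AU-15330 (42%). They gave 6865 genes (52.9%) for cisplatin and 4807 (37%) for the interaction. Of 33 followed genes with an interaction value in these fits, replicates 4 to 6 called 31 and replicates 1 to 3 called 15. Sums within the sets gave 4343 genes for cisplatin, 2605 genes and 1 member for the combination against AU-15330 and 1402 and 1 for the interaction. The cause of these shifts was not tested, beyond fewer samples in each fit. With the set as a block and all libraries kept, 8 members were lower for cisplatin, 6 for AU-15330 and 5 for the combination against DMSO. That fit gave 4 higher and 2 lower against cisplatin, 2 higher and 1 lower against AU-15330, and 8 positive for the interaction. The shares of all genes called with the set block are not given here.

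With the replicate number as a block, 8 members were called for cisplatin and 7 for the interaction (Atf5, adjusted p = 0.0634, edgeR), and no other member call changed. The share of all genes called with this block is not given here. Without the block it was 51.7% for cisplatin and 33.7% for the interaction. The numbers met the bar for pairing only between AU-15330 and the combination.

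Signs changed as follows, all log2. For cisplatin, Nupr1 became 0.0019 (DESeq2), 0.0017 (DESeq2 size factors), 0.0437 (total counts), 0.18 (replicate block and set block), 0.35 (sums) and 0.98 (replicates 1 to 3), with -0.27 to 0.23 when 1 replicate was left out, and Atf5 became 0.14 (replicates 1 to 3). For AU-15330, Asns became 0.0642 (total counts), 0.20 (sums) and 0.47 (replicates 1 to 3), with -0.25 to 0.13 when 1 replicate was left out, and Chac1 became -0.69 (replicates 4 to 6), with -0.14 to 0.27 when 1 was left out (-0.0675 without DMSO replicate 1). In replicates 1 to 3 Atf5 became 0.46, Ddit3 0.31, Sesn2 0.0208 and Eprs 0.0198. For the combination against DMSO, Atf5 became 0.0284 (total counts), 0.15 (sums) and 0.60 (replicates 1 to 3), with -0.34 to 0.0995 when 1 replicate was left out, and Ddit3 0.0219 (total counts), 0.12 (sums) and 0.37 (replicates 1 to 3), with -0.36 to 0.0296. Asns became -0.32 and Chac1 -0.18 (replicates 4 to 6), Asns also -0.0784 without replicate 1, with 0.35 as its highest, and Sesn2 0.42 and Slc3a2 0.0177 (replicates 1 to 3). Against AU-15330, Chac1 became -0.13 and Nupr1 0.0457 in replicates 1 to 3. The interaction became -0.0253 for Ddit4 (replicates 1 to 3) and 0.25 for Nupr1 (replicates 4 to 6), with -0.30 to 0.0327 for Nupr1 when 1 library or replicate was left out. The cause was not tested.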
